A study of Mus musculus with 38 samples.

Results

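The libraries described here are the resting TurboID-PSD95 libraries of a proximity-labelling ribosome profiling (PL-Ribo-seq) experiment: 3 streptavidin pulldowns, titled REST_PSD95_pd, and the 3 inputs titled REST_PSD95_in that carry the same replicate numbers. They were chosen by their titles and are 6 of the 38 libraries of the series. The cells were mouse primary cortical neurons of the outbred CD-1 strain, grown from embryos in Neurobasal medium with B27 and transduced with a lentivirus carrying a doxycycline-inducible construct. TurboID is a biotin ligase that tags proteins close to it when biotin is added, and here it was joined to PSD95, a scaffold of the postsynaptic density, with PSD95 untranslated regions around the coding sequence. Every library of the groups used here, inputs included, came from cells that expressed a TurboID construct and received cycloheximide, which halts elongating ribosomes, for 2 min and biotin for 30 min. Nuclease-cut monosomes were split, a small share was kept as input and the rest went onto streptavidin beads, so an input and a pulldown of the same number came from the same culture. The resting Pan-TurboID libraries (a ligase without a localization signal, 3 pulldowns and 3 inputs) and the depolarized TurboID-PSD95 libraries (silenced with TTX and DL-AP5, then given 55 mM KCl, 3 and 3) have inputs of their own and serve as comparisons. The cultures mixed cell types, the transgene was present beside the endogenous gene, and the culture rather than the animal was the replicate.

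Ribosome profiling sequences the stretch of mRNA that a ribosome covers, so counts over a coding sequence (CDS) follow the number of ribosomes on it. PSD95, encoded by Dlg4, anchors glutamate receptors in dendritic spines, where part of the neuronal proteome is made locally. A streptavidin pulldown of monosomes can hold ribosomes whose own proteins were tagged, ribosomes near a tagged partner and ribosomes with a tagged nascent chain, and the counts do not separate these.

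CDS counts per library, summed over the longest transcript of each gene, ran from 2047216 to 13017047. The log2 pulldown-over-input ratio of the 13003 genes tested correlated across genes between replicate pairs at Pearson's r of 0.57, 0.66 and 0.52, a description over genes and not over independent samples. Neuron markers (9 genes) summed to 7918 to 8876 CPM (CDS reads scaled to the TMM-adjusted CDS total of the library) in the inputs and to 6529 to 7438 in the pulldowns. Astrocyte markers (11 genes) summed to 756 to 1358 CPM in the inputs and 822 to 1722 in the pulldowns, and oligodendrocyte lineage markers (10 genes) to 277 to 658 and 173 to 568. The 10 microglia markers summed to 1.08 to 4.39 CPM over all 6 libraries, none had counts enough to be tested, and Tmem119, C1qb and Trem2 stood at 0 in each of them. The part that other cells have in any result was not tested, nor whether cell types differed in bait level or labelling. Input and pulldown of a pair came from the same cells. Between cultures, a lower level from fewer cells of a type cannot be told apart from less ribosome-bound RNA per cell in bulk libraries.

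Dlg4, the gene that encodes the bait, was read first. Its CDS held 122, 152 and 190 CPM in the 3 inputs and 1504, 1419 and 3093 CPM in the pulldowns of the same cultures. Every pulldown lay far above every input, and the log2 ratio was 3.62 (SE 0.26, edgeR quasi-likelihood adjusted p = 4.1e-08). In the resting Pan-TurboID libraries the Dlg4 ratio was -0.26 (adjusted p = 0.47), and in the depolarized TurboID-PSD95 libraries it was 3.76 (adjusted p = 7.2e-08). The transgene carries PSD95 coding sequence of rat, and reads from bait mRNA and from the endogenous transcript cannot be told apart in the deposited counts. The level in the resting Pan-TurboID inputs was 50.7, 49.8 and 58.8 CPM, below all 3 inputs of the TurboID-PSD95 cultures. The longest Dlg4 transcript has a CDS of only 822 nt (mm10 chromosome 11, from 70018920 to 70031833, plus strand), and the Dlg4 transcript with the highest count, with a CDS of 2175 nt, held 348, 449 and 564 CPM in the inputs.

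Across all genes, 2509 were higher in the pulldown (19.3%) and 2934 were lower (22.6%) at an adjusted p of 0.05, out of 13003 tested. The balance turned without replicate 1 (2119 higher, 1848 lower) and without replicate 3 (2185 and 1884), and not without replicate 2 (1935 and 2376). CDS length ordered these calls. With the genes put into 10 groups of equal size by CDS length, the 1301 genes of the shortest group (median CDS 354 nt) had 13 higher and 765 lower, and the mean of the 3 replicate pairs' median log2 ratios was -1.10 ± 0.17 (SD, n = 3). Among the 1301 genes of the longest group (median CDS 4785 nt), 577 were higher and 97 lower, and the same mean was 0.52 ± 0.04 (SD, n = 3). Spearman's rho between CDS length and log2 ratio across the 13003 genes was 0.53, and 0.51, 0.46 and 0.46 in the single replicate pairs, as a description of genes that share libraries. After each library's smooth trend of log2 CPM on CDS length was removed in the fit, rho was 0.02. On that scale 1888 genes were higher (14.5%) and 2029 lower (15.6%).

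**Figure D1:**
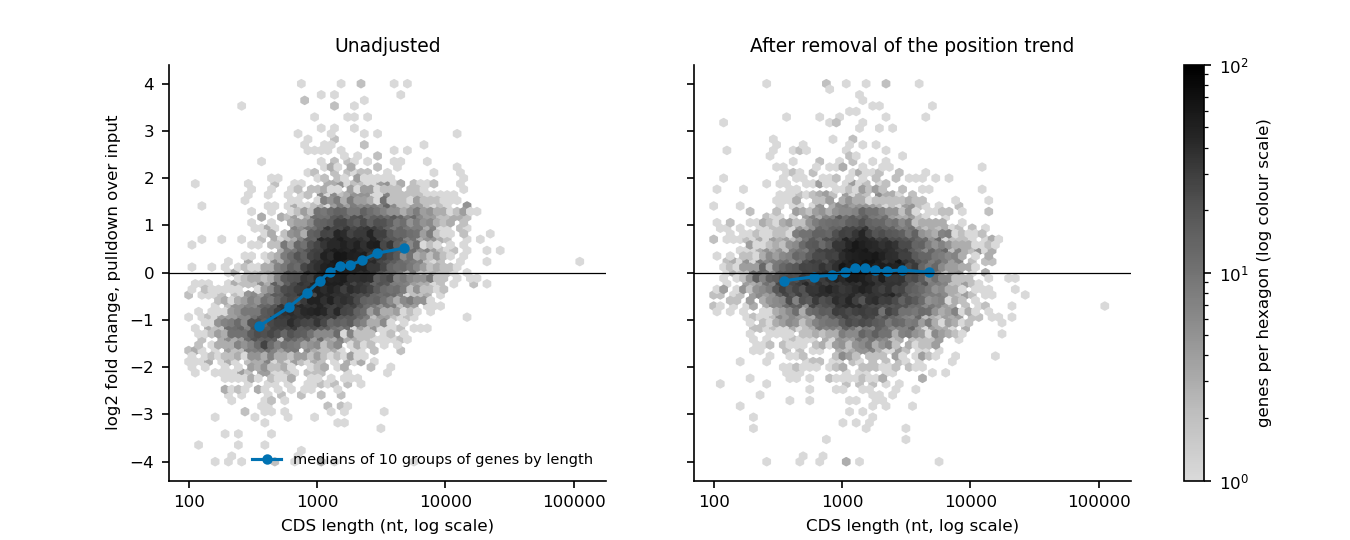
Log2 pulldown-over-input ratio (y axis, values beyond 4 drawn at the edge) against CDS length in nt (x axis, log scale, lengths under 100 nt drawn at 100) in the resting TurboID-PSD95 libraries, as measured and after removal of the position trend. Grey hexagons give the number of genes and points the medians of 10 groups of equal size by CDS length, which climb from the shortest to the longest group as measured and stay near 0 after the removal (-0.17 in the shortest group, 0.01 in the longest).

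The length trend had a counterpart along the CDS, read on counts summed over genes. The trend was not computed in single genes. Over the first 50 nt, counted from the start codon to the midpoint of the exon segment, the share of all CDS counts in the pulldown over that in the input was -1.42, -1.21 and -1.64 on the log2 scale in replicates 1, 2 and 3. All 3 pairs were negative there. Between 500 and 750 nt the mean was -0.02 ± 0.03 (SD, n = 3), between 1000 and 1500 nt it was 0.34 ± 0.01, and from 6000 nt on it was 0.84 ± 0.02. The replicates' spread was therefore small beside the climb from start to end. The low start was present in the summed counts of every length class. In the first 300 nt the mean lay between -1.21 (CDS under 600 nt) and -1.08 (CDS from 2000 nt to below 4000 nt). CDS of 4000 nt and over, which gained as whole genes, stood at -1.13 ± 0.20 there. Further in, the ratio at a given distance differed by CDS length. Between 1000 and 1500 nt the means were 0.46 ± 0.06 and 0.53 ± 0.04 in the classes from 600 nt to below 2000 nt. They were 0.20 ± 0.02 from 2000 nt to below 4000 nt and 0.13 ± 0.04 at 4000 nt and over. In the 4987 genes with a CDS over 2000 nt, the ratio beyond 1000 nt exceeded that of the first 300 nt by 1.52, 1.46 and 1.75 log2 units in the 3 pairs (mean 1.58 ± 0.15 SD, two-sided exact paired permutation test, p = 0.25, the smallest p that 3 pairs allow). The Pan-TurboID pulldowns showed 1.31, 1.31 and 1.46 (mean 1.36 ± 0.09), below TurboID-PSD95 at each replicate number. An exact permutation test of the difference that does not pair by replicate number gave p = 0.20. The depolarized TurboID-PSD95 pulldowns had a mean of 1.60 ± 0.56 (the same exact permutation test, p = 0.90). An exact permutation test of 3 values against 3 cannot go below p = 0.10.

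**Figure D2:**
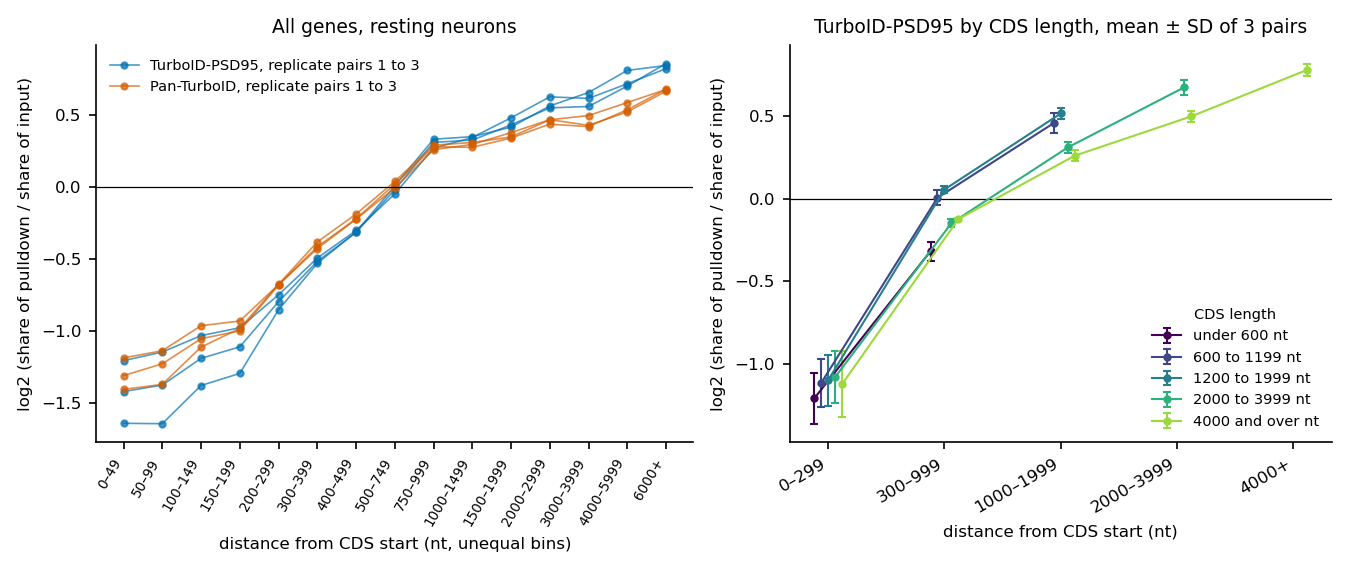
Log2 of the share of CDS counts in the pulldown over that in the input (y axis) against distance from the start codon in nt (x axis, unequal bins), for each of 3 replicate pairs of resting TurboID-PSD95 and Pan-TurboID and, in the other panel, by CDS length class as mean ± SD of 3 TurboID-PSD95 pairs. The TurboID-PSD95 mean climbs from -1.42 in the first 50 nt to 0.84 beyond 6000 nt.

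The untranslated regions on either side of the CDS also differed in their share of the counts. Reads were counted at their 5′ ends with no offset, so the footprint of a ribosome at the start codon counts in the 5′ UTR segment, and the 5′ UTR values include such reads. The 5′ UTR held 16.3, 22.1 and 20.2% of the counts of a transcript in the inputs and 5.56, 10.1 and 6.31% in the pulldowns. All inputs lay above all pulldowns, with a mean difference of -12.3 percentage points (SD 1.58, n = 3 pairs, exact paired permutation test, p = 0.25). The 3′ UTR held 1.63, 1.56 and 1.72% in the inputs and 2.44, 2.34 and 3.41% in the pulldowns. Every pulldown lay above every input (difference 1.09 points, SD 0.52, exact paired permutation test, p = 0.25). With Pan-TurboID at rest the differences were -12.0 points (SD 1.08) in the 5′ UTR and 0.69 points (SD 0.08) in the 3′ UTR. Exact permutation tests of the log2 share ratios between the baits gave p = 0.50 and p = 0.10. The 5′ UTR segments that abut the start codon made up 70.8 to 71.1% of the 5′ UTR counts in the inputs and 69.1 to 70.0% in the pulldowns, lower in 3 of 3 pairs. Gene by gene, on the library sizes of the CDS counts, 6612 of 8527 5′ UTRs tested were lower (77.5%) and 2 were higher (0.0235%). Relative to the other 5′ UTRs, with library sizes and TMM factors of the 5′ UTR counts themselves, 9 of 8389 were lower and 22 higher (median -0.05).

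Those 2 were Rabggtb and Rpl32. Rabggtb, a subunit of the enzyme that attaches geranylgeranyl groups to Rab proteins, had 6, 46 and 5 5′ UTR reads in the inputs and 267, 200 and 77 in the pulldowns, with a log2 ratio of 4.17 (SE 0.39, edgeR adjusted p = 6.9e-22). Its CDS went the other way, at -1.31 (edgeR adjusted p = 0.0011). Rpl32, a protein of the large ribosomal subunit, had 234, 159 and 103 5′ UTR reads in the inputs against 260, 205 and 269 in the pulldowns (log2 ratio 1.33 on the CDS library sizes, SE 0.29), with a CDS ratio of -1.26. In both genes the UTR and the CDS therefore moved in opposite directions.

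Of 1169 3′ UTRs tested, 384 were higher (32.8%) and 88 lower (7.53%) on the CDS library sizes, 81.4% of the calls being higher. On library sizes and TMM factors of the 3′ UTR counts the balance turned, with 142 of 1120 higher and 203 lower, 41.2% of the calls being higher (median 0.10). The 3′ UTR of Gpm6a, a membrane glycoprotein of axons and filopodia, held 54, 11 and 33 reads in the inputs and 213, 200 and 163 in the pulldowns. The log2 ratio was 3.41 (SE 0.25, adjusted p = 6.2e-16), against 0.51 over its CDS. The Calm3 3′ UTR, of a calmodulin gene, rose by 2.06 (SE 0.19, adjusted p = 1.6e-13) while its CDS ratio was -1.41 (adjusted p = 3.5e-05). The 3 lower 3′ UTRs with the lowest adjusted p, Wdr89, Gm45234 and Sssca1, had 3′ UTR ratios of -1.30, -1.36 and -1.33.

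A short CDS lies wholly in the stretch that was low in the pulldown, so gene classes were read on 3 scales: as measured, with the trend on CDS length removed, and with the position trend along the CDS removed from each exon segment before summing. Class counts are to be read beside the shares of all genes, 19.3% higher and 22.6% lower as measured. Length-adjusted, these shares were 14.5% and 15.6%. On the position-adjusted scale 1861 genes were higher (14.3%), 2073 were lower (15.9%) and the median gene stood at 0.00. Counts from segments with midpoints 300 to 1000 nt into the CDS alone are given for some classes. On that scale 1612 of 10539 genes were higher (15.3%) and 1655 lower (15.7%), with a median of -0.02. In that stretch the mean log2 share ratio was -0.32 in CDS under 600 nt. It was 0.005 and 0.055 in the length classes from 600 nt to below 2000 nt, and -0.15 and -0.12 in the longer ones. That scale is therefore not free of CDS length, and the position trend used distance from the start codon alone. Of the 2509 genes higher as measured, 1592 kept the call under position adjustment, 913 lost it and 4 took the opposite call. Of the 2934 lower as measured, 1498 kept it, 1434 lost it and 2 took the opposite call.

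Snhg11, annotated as a small nucleolar RNA host gene with a short open reading frame (CDS 264 nt), had the lowest length-adjusted p. It held 8.50, 9.52 and 6.65 CPM in the inputs and 117, 89.4 and 75.1 CPM in the pulldowns. Every pulldown lay above every input, with a log2 ratio of 3.52 as measured (SE 0.26, adjusted p = 3.1e-09) and 4.68 with the length trend removed. Here and below, genes named for a low p were picked from these same values. Separation of pulldowns from inputs in them describes the pick and is no separate support. The share of all genes with such separation was not counted. The other genes with the lowest length-adjusted p among those higher were mt-Co3 and mt-Atp6, which encode subunits of the respiratory chain on the mitochondrial genome, the secretory carrier membrane protein Scamp5, the phospholipid phosphatase-related Plppr3, the acyltransferase Agpat4, the oligosaccharyltransferase Stt3a and Rundc3a. Plppr3 stood at 266, 263 and 308 CPM in the inputs and 717, 743 and 930 CPM in the pulldowns, with a log2 ratio of 1.51 (SE 0.13) as measured and 1.45 length-adjusted. Scamp5, with a CDS of 708 nt, had a log2 ratio of 0.99 as measured and 1.49 length-adjusted.

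The genes with the lowest length-adjusted p among those lower were Mn1, Map2, Soga3, Ubap2l, Prrc2c, Khsrp, Btbd8 and Gm45234. Map2, the microtubule-associated protein of dendrites, stood at 3693, 4318 and 4039 CPM in the inputs and 2244, 2695 and 2054 CPM in the pulldowns. No pulldown reached an input, and although its CDS is 5487 nt long the log2 ratio was -0.79 as measured (SE 0.12, adjusted p = 1.5e-05), -1.31 length-adjusted and -1.50 position-adjusted. Mn1, a transcriptional co-regulator, had 338, 578 and 525 CPM in the inputs and 173, 308 and 218 CPM in the pulldowns, and a length-adjusted ratio of -1.47. Khsrp, a KH-domain RNA-binding protein, had a length-adjusted ratio of -1.41. Gm45234 has the same CDS segments and counts as Atn1 (mm10 chromosome 6, 124743072 to 124749773, minus strand), so the gene is listed under both names. The Btbd8 ratio was -0.82 as measured and -1.53 position-adjusted, whereas counted between 300 and 1000 nt of the CDS alone it was 1.32 (adjusted p = 0.51).

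These 8 windows, each of 10 codons, show the coding sequence of the 4 higher genes of the nuclear genome and the 4 lower genes with the lowest length-adjusted p, in the stretch of each CDS richest in codons with T at the second base, and capitals mark those Ts. They were cut from GENCODE transcripts of mm10 and are written 5′ to 3′ on the coding strand. Codons with T at the second base encode phenylalanine, leucine, isoleucine, methionine or valine, the residues that fill membrane-spanning segments.
Snhg11: aTgagccTttgccgcaaggcccTctTgaca
Scamp5: gTggTgaTgcTcaTtcccacggTcaTgtTc
Plppr3: cTgaTcccatTgcTcaTgcTgcTgagccTg
Agpat4: cTgcTgcTctacccttTctTccagtTccTa
Mn1: cTtcTccTtggggaccagccggaccTcaTg
Map2: gaggTatctgcaaggaTagTtcaagTagTc
Soga3: aTcaTtcTgcTtaTccTcaTccTcgTctTg
Ubap2l: gatgTcaacagagccaTcaatgTtcTccTg

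Among the higher genes, Scamp5 and Plppr3 had 8 such codons of 10 in the window, Agpat4 had 7 and Snhg11 had 4. Among the lower ones, Mn1, Map2 and Ubap2l had 5, whereas Soga3 had 10 of 10 from codon 914 to codon 923 of its 946, a hydrophobic run near the end of the coding sequence. Over the whole CDS the share of codons with T at the second base was 33.9% in Scamp5, 33.0% in Agpat4 and 27.9% in Plppr3, and 23.9% in Snhg11, below the median of 26.3% over all genes. It was 16.8% in Mn1, 16.8% in Ubap2l, 20.2% in Map2 and 20.4% in Soga3.

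Over the 12851 genes with a CDS sequence of the length given in the count files, the share of codons with T at the second base ordered the position-adjusted log2 ratio with a Spearman rho of 0.46, and 0.43, 0.39 and 0.38 in the 3 pairs. These are descriptions over genes that share libraries. In 5 groups of equal size by that share, the median position-adjusted ratio was -0.50, -0.21, 0.02, 0.20 and 0.43. In the lowest group 46 of 2571 genes were higher and 921 lower, and in the highest group 776 of 2570 were higher and 66 lower. The share of proline codons had a rho of -0.24, that of lysine codons, which code for the residue biotin is attached to, -0.10, GC content -0.14, and the lengths of the 5′ and 3′ UTRs 0.05 and 0.01. The Pan-TurboID pulldowns gave a rho of 0.46 for codons with T at the second base.

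**Figure D3:**
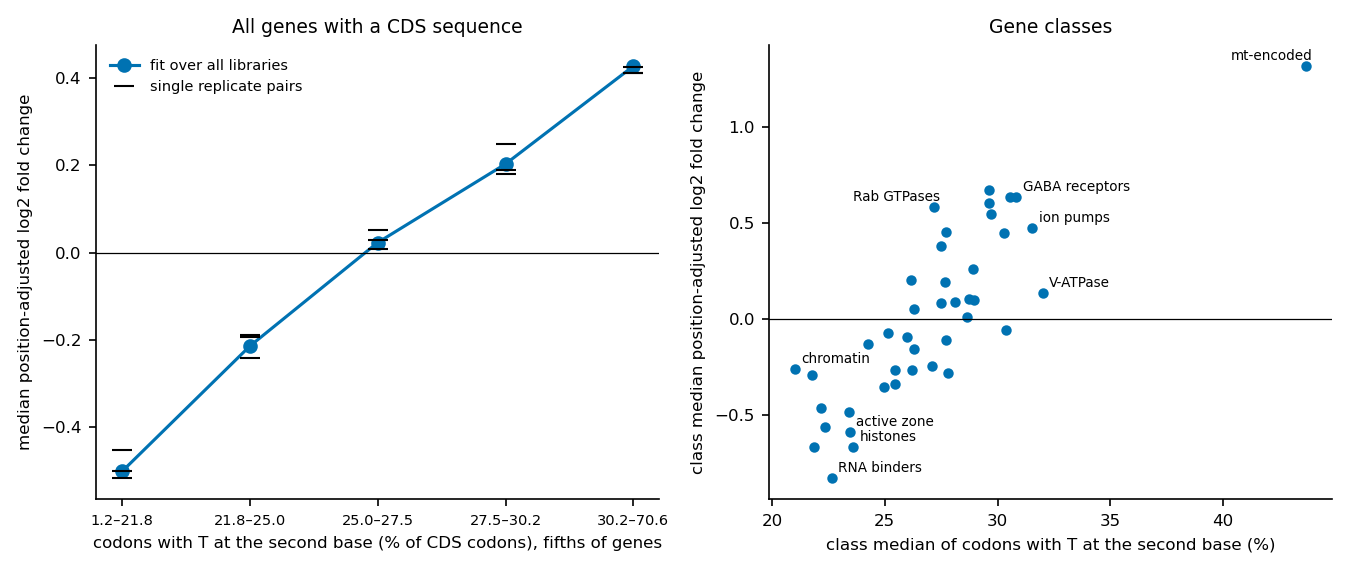
Median position-adjusted log2 pulldown-over-input ratio (y axis) against the percent of codons with T at the second base (x axis), in 5 groups of genes of equal size with the 3 replicate pairs as dashes, and for the gene classes. The groups climb from -0.50 to 0.43, and mitochondrially encoded genes, at 43.7% of codons, lie highest among the classes (10 of the 13 had a sequence).

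Among postsynaptic genes, no listed gene of the ionotropic glutamate or GABA receptors was lower as measured, and scaffolds were called in both directions. Of 27 ionotropic glutamate receptor and auxiliary subunit genes, 15 were higher and none lower (median log2 ratio 0.62, against -0.06 for all genes), and with the length trend removed 14 were higher and none lower (median 0.66). Gria2, the AMPA receptor subunit that sets calcium permeability, held 416, 345 and 444 CPM in the inputs and 993, 798 and 1055 CPM in the pulldowns. All pulldowns lay above all inputs, with a log2 ratio of 1.24 (SE 0.11, adjusted p = 1.1e-08). Gria3 had a ratio of 1.39. Of 18 GABA receptor and gephyrin genes, the inhibitory counterpart, 14 were higher and none lower (median 0.77), and 12 were higher length-adjusted. Gabrb1, a beta subunit of the GABA-A receptor, stood at 88.6, 83.0 and 53.7 CPM in the inputs and 193, 137 and 165 CPM in the pulldowns, each pulldown above all inputs (log2 ratio 1.14, SE 0.17).

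Of 29 other postsynaptic scaffold genes, leaving out Dlg4, 5 were higher as measured (Kalrn, Dlg1, Agap2, Dlgap1 and Lrrc7) and 5 lower (Synpo, Ctnnd2, Dlg3, Dlgap4 and Magi1), with a median of 0.01. Both shares were below those of all genes (19.3 and 22.6%). With the length trend removed, Dlg1 and Kalrn were higher and 10 were lower (median -0.26). Dlg1, SAP97, a close paralog of PSD95, had 32.8, 21.1 and 29.9 CPM in the inputs and 65.7, 80.3 and 83.9 CPM in the pulldowns. The groups did not overlap (log2 ratio 1.45, SE 0.27, adjusted p = 0.00014). Synpo, the actin-linked protein of the spine apparatus, fell from 66.6, 46.9 and 77.5 CPM to 26.9, 35.3 and 23.9 CPM, a log2 ratio of -1.11 (SE 0.23). Of 28 postsynaptic kinases, phosphatases and calcium sensors, 7 were higher and 11 lower, and 6 and 7 with the length trend removed. Camk2a, the most abundant kinase of the density, was among the higher (1.04), and Camk2n2, an inhibitor of it with a CDS of 240 nt, was among the lower (-1.80 as measured, -0.58 length-adjusted).

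Presynaptic genes were called in both directions. Of 41 synaptic vesicle and SNARE genes, 17 were higher and 11 lower (median 0.16). The median was 0.32, 0.03 and 0.27 without replicates 1, 2 and 3. Length-adjusted, 17 were higher and 5 lower, Nsf, Syn2, Vamp2 and Napb among the lower. Between 300 and 1000 nt of the CDS alone the median was -0.08, with 14 higher and 9 lower of 40. Sv2b and Sv2a, membrane glycoproteins of the vesicle, had log2 ratios of 1.41 and 1.13. Snap25, a SNARE without a membrane-spanning segment, had -0.74 as measured (adjusted p = 3.1e-05) and -0.13 length-adjusted (adjusted p = 0.47), and -0.35 position-adjusted (adjusted p = 0.018). Among 18 active zone scaffold genes, 4 were higher (Unc13a, Unc13b, Ppfia4 and Rimbp2) and 4 lower (Erc1, Ppfia3, Apba1 and Erc2), and length-adjusted Unc13a alone was higher and 12 were lower (median -0.57). Erc1, a scaffold of release sites, held 191, 194 and 218 CPM in the inputs and 115, 126 and 142 CPM in the pulldowns (length-adjusted ratio -1.06, adjusted p = 3.4e-07).

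Channels and transporters of the plasma membrane were raised on each scale. Of 22 voltage-gated sodium and calcium channel genes, 14 were higher and none lower (median 1.12). Length-adjusted, 12 were higher and Cacnb1, a cytosolic auxiliary subunit, was lower. Cacna1b, the pore of N-type calcium channels, held 267, 137 and 218 CPM in the inputs and 655, 368 and 517 CPM in the pulldowns, each pulldown above all inputs (log2 ratio 1.32, SE 0.12, adjusted p = 2.7e-08). Cacna1a, the P/Q-type pore, had a ratio of 1.60. Of 67 potassium channel genes tested of 92 listed, 27 were higher and 2 lower (Kcnip3 and Kcnmb4), and length-adjusted 20 were higher and Kcnn2 and Kcnip3 were lower. Kcnip3, a cytosolic calcium-binding subunit, had a ratio of -1.74, and the inward rectifier Kcnj4 one of 1.31. Of 21 ion pump and cotransporter genes 18 were higher and none lower (median 0.95), and length-adjusted 17 were higher and none lower. The neuronal chloride exporter Slc12a5 rose from 302, 259 and 377 CPM to 677, 638 and 782 CPM (log2 ratio 1.17, SE 0.12).

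Adhesion genes, most of them long, depended on the length. Of 49 synaptic adhesion and axon guidance receptor genes, 27 were higher and 7 lower (median 0.62). Length-adjusted, 14 were higher and 16 lower (median 0.19), and position-adjusted the median was 0.05. The teneurins Tenm2 and Tenm4 were higher on all 3 scales, at 1.18 and 1.28 as measured and 0.56 and 0.66 length-adjusted. N-cadherin, Cdh2, had a ratio of -0.68 as measured and -1.02 length-adjusted.

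Among cytoskeletal genes, tubulins were raised, and most microtubule-associated proteins were not. Of 13 tubulin genes, 8 were higher and none lower (median 0.40), and 7 were higher length-adjusted. Tubb2a had 4321, 3401 and 3012 CPM in the inputs and 6445, 5267 and 5227 CPM in the pulldowns (log2 ratio 0.67, SE 0.11, adjusted p = 1.8e-05). Tubulin genes are close paralogs, and reads that fit several of them make their separate counts uncertain. Of 25 microtubule-associated protein genes, 4 were higher (Map1b, Camsap2, Map1a and Macf1) and 10 lower as measured, and none was higher and 14 were lower length-adjusted (median -0.41). Map4 fell from 625, 751 and 662 CPM to 306, 423 and 266 CPM (log2 ratio -1.05, SE 0.15). Of 10 stathmin and intermediate filament genes, 8 were lower as measured, and Ina, Nefm, Vim, Nefl and Stmn1 were lower length-adjusted.

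Of 38 actin and actin regulator genes, 5 were higher (Cyfip2, Nckap1, Cyfip1, Actr3 and Actr2) and 24 lower, and 7 and 16 length-adjusted. Of all genes, 19.3% were higher and 22.6% lower as measured, and 14.5% and 15.6% length-adjusted. Cyfip2 and Nckap1 are subunits of the WAVE complex that switches on actin branching, and Actr2 and Actr3 belong to the branching complex itself. Cyfip2 stood at 273, 271 and 273 CPM in the inputs and 597, 610 and 685 CPM in the pulldowns, above every input (log2 ratio 1.21, SE 0.12). Cfl1, which severs filaments, had a ratio of -1.17 as measured and -0.37 length-adjusted. Of 8 spectrin and ankyrin genes, 2 were higher as measured, Sptbn4 among them, and none lower. Sptbn4 was higher and Ank2 and Sptan1 lower length-adjusted. Among 63 kinesin, dynein and dynactin genes tested, 21 were higher and 12 lower, and length-adjusted 9 and 6. The length-adjusted shares were not above those of all genes (14.5% higher and 15.6% lower). Dync1h1, the dynein heavy chain, had a ratio of 1.36, and the light chain Dynll2 -1.39 as measured and -0.24 length-adjusted (adjusted p = 0.40).

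**Figure D4:**
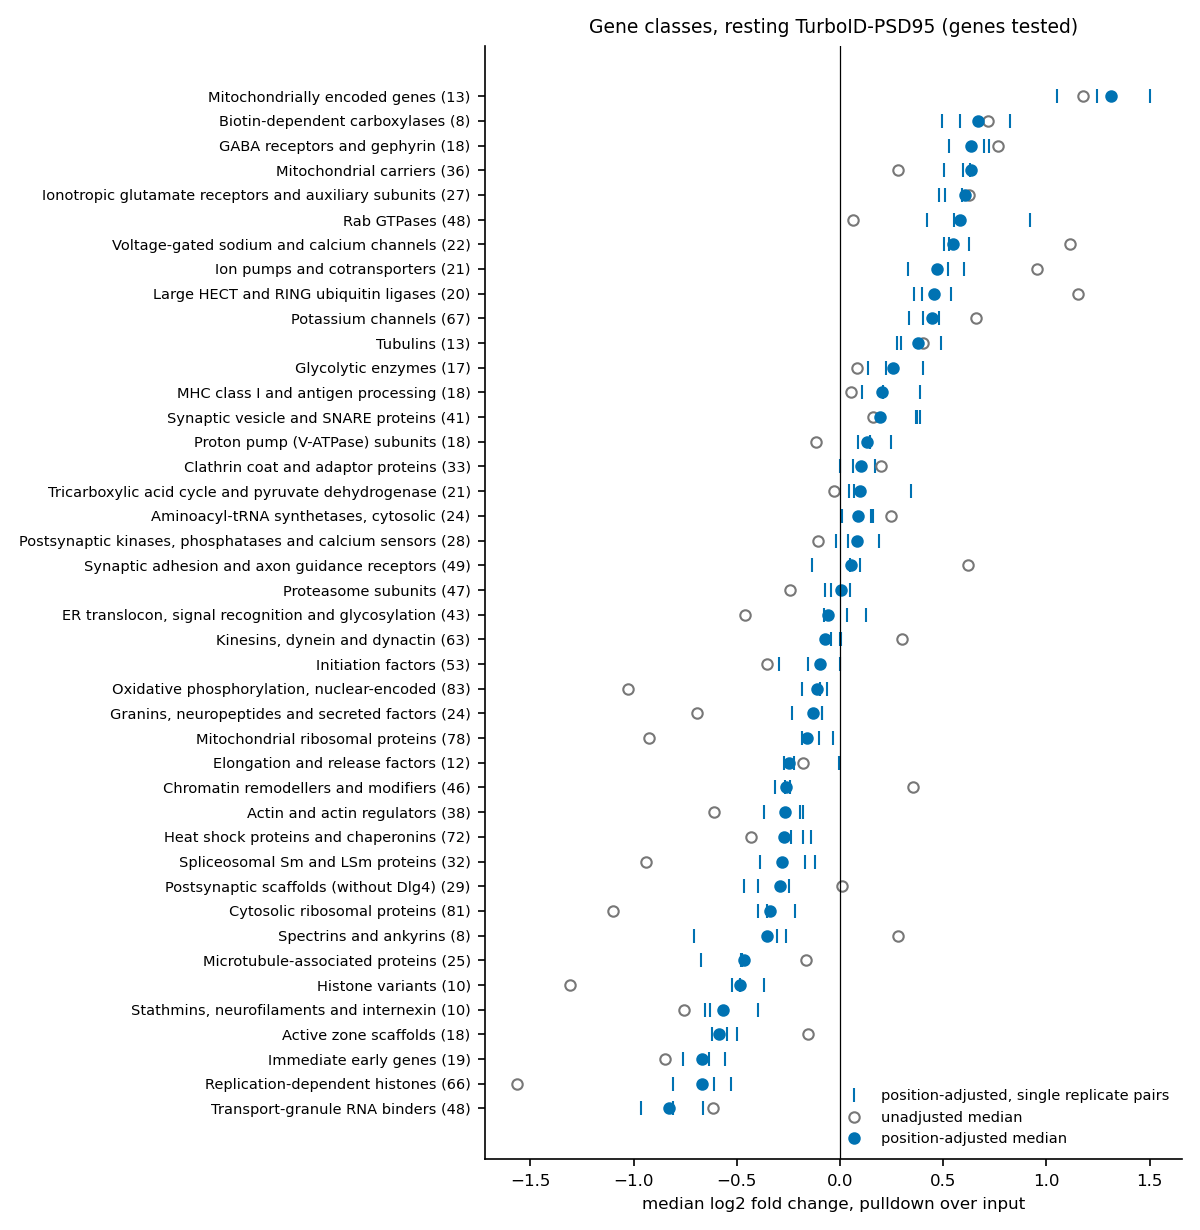
Median position-adjusted log2 pulldown-over-input ratio of each gene class (x axis, filled points), with the 3 replicate pairs as ticks and the unadjusted median as open points, for the resting TurboID-PSD95 libraries. Mitochondrially encoded genes (1.32) stand at one end and transport-granule RNA binders (-0.83) at the other.

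Rab GTPases, the switches of vesicle traffic, were raised once CDS length was taken into account. Of 48 genes tested of 59 listed, with a median CDS of 645 nt, 11 were higher and 2 lower (Rab12 and Rab40c) as measured, with a median of 0.06, where 19.3% of all genes were higher and 22.6% lower. With the length trend removed 29 were higher and Rab12 was lower (median 0.63), and counted between 300 and 1000 nt of the CDS alone 22 of 42 were higher and none lower (median 0.76), against 15.3% higher and 15.7% lower of all genes on that scale. Rab14 stood at 84.5, 56.2 and 54.0 CPM in the inputs and 148, 122 and 179 CPM in the pulldowns. All pulldowns exceeded all inputs (log2 ratio 1.20 as measured, SE 0.17; 1.76 length-adjusted). Their median share of codons with T at the second base was 27.2%, near the 26.3% of all genes.

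Of 33 clathrin coat and adaptor genes, 14 were higher and 9 lower, and 10 and 8 length-adjusted. Ap2m1, the cargo-binding subunit of the endocytic adaptor, was higher (1.43), and the clathrin light chain Cltb was lower (-1.23 as measured, -0.64 length-adjusted). Of 18 V-ATPase genes tested, 4 were higher as measured (Atp6v0a1, Atp6ap2, Atp6v1a and Atp6v0a2) and 7 lower, and length-adjusted 7 were higher and none lower. Position-adjusted 5 were higher and Atp6ap1 lower, and between 300 and 1000 nt of the CDS alone 5 of 13 were higher and 4 lower. Of 24 granin, neuropeptide and secreted factor genes, Reln, Pcsk2 and Pdyn were higher on both scales, and 15 were lower as measured and 8 length-adjusted. Sst, the somatostatin precursor with a CDS of 351 nt, had a ratio of -1.22 as measured and -0.20 length-adjusted (adjusted p = 0.31), and Reln, the extracellular matrix protein reelin with a CDS of 10386 nt, 1.18 and 0.51. Of 43 genes of the ER translocon, signal recognition and glycosylation, 8 were higher and 22 lower, and 12 and 13 length-adjusted. Stt3a, the catalytic subunit of the oligosaccharyltransferase with many membrane passes, rose from 114, 88.2 and 90.3 CPM to 333, 258 and 298 CPM (log2 ratio 1.60, SE 0.12), and the soluble lumenal Pdia3 had a ratio of -0.93.

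Ribosomal protein genes were lower in the pulldown as measured and less so with CDS length taken into account. Of 81 cytosolic ribosomal protein genes tested, none was higher and 70 were lower (median -1.10). Length-adjusted, Rpl5 was higher and 22 were lower (median -0.26). Between 300 and 1000 nt of the CDS alone 1 of 54 was higher and 22 were lower (median -0.69). Of all genes on that scale, 15.3% were higher and 15.7% lower. Rps9, of the small subunit, had 375, 490 and 351 CPM in the inputs and 137, 220 and 120 CPM in the pulldowns, all below the inputs, a ratio of -1.38 as measured (SE 0.15) and -0.46 length-adjusted. Ribosomal protein genes have many processed copies in the genome, which makes their counts uncertain. Of 53 initiation factor genes, 6 were higher and 21 lower as measured, and length-adjusted Eif3l, Eif5b, Eif6 and Eif2ak4 were higher and 11 lower. Of 12 genes listed with the elongation and release factors, Abce1, Eef2, Eef2k and Eef1a2 were higher and Eef1e1, Eif5a, Eef1b2 and Gspt1 lower as measured. Length-adjusted, Abce1 and Eef2k were higher and Gspt1, Eef1b2 and Etf1 lower. Of 24 genes of cytosolic aminoacyl-tRNA synthetases and their partner proteins, 8 were higher and 3 lower (Eef1e1, Wars and Tars). Length-adjusted, Eprs, Lars, Vars, Aimp2 and Mars were higher and Farsb lower. Eef1e1 and Aimp2 are partner proteins without synthetase activity, and Eef1e1 is counted in both lists. Between 300 and 1000 nt of the CDS alone 5 of 23 were higher and 6 lower. The median was -0.21 there, against 0.25 as measured, and 15.3% of all genes were higher and 15.7% lower.

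RNA-binding proteins of transport granules, which carry mRNA along dendrites, were lower on every scale. Of 48 genes, 3 were higher as measured (Ago1, Ago2 and Cpeb1) and 34 lower (median -0.62). Length-adjusted, the Argonautes Ago1 and Ago2 were higher and 36 were lower (median -0.78), and between 300 and 1000 nt of the CDS alone none of 45 was higher and 31 were lower (median -0.76; all genes 15.3% higher and 15.7% lower). Elavl2, an AU-rich element binder of neurons, fell from 240, 301 and 275 CPM to 127, 150 and 115 CPM, with each pulldown below each input (log2 ratio -1.05, SE 0.13, adjusted p = 1.3e-06). Hnrnpa2b1, which binds a dendritic targeting element, had a ratio of -1.02. The median pulldown-over-input ratio of these 48 genes was -0.59, -0.50 and -0.84 in the 3 pairs.

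**Figure D5:**
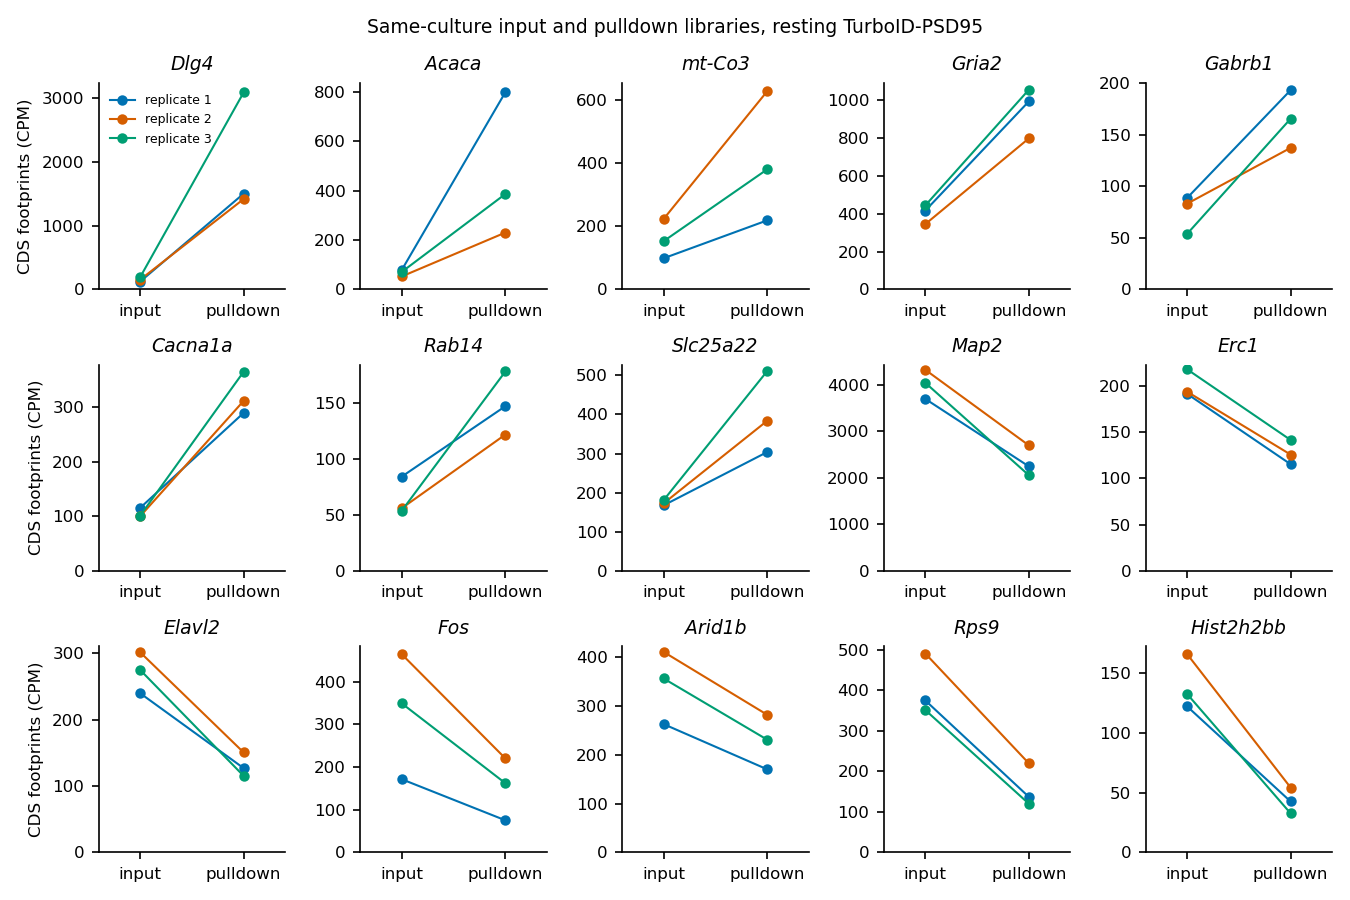
CPM of 15 genes (y axis from 0, a scale for each gene) in each of the 3 inputs and 3 pulldowns of the resting TurboID-PSD95 libraries, with a line joining the input and the pulldown of one culture. Dlg4 rises from 122, 152 and 190 CPM to 1504, 1419 and 3093 CPM.

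Mitochondrially encoded genes were raised, and most nuclear-encoded respiratory chain genes were lower as measured. All 13 mitochondrially encoded genes, translated by ribosomes inside the organelle, were tested. As measured 10 of them were higher and none lower (median 1.18), and length-adjusted 13 of 13 were higher (median 1.37). The counts of mt-Nd4 were 66.9, 181 and 106 CPM in the inputs and 208, 443 and 277 CPM in the pulldowns. Every pulldown lay above every input (log2 ratio 1.44, SE 0.13, adjusted p = 1.9e-08). mt-Nd5 had a ratio of 1.46. Of 83 nuclear-encoded oxidative phosphorylation genes tested, 5 were higher (Sdha, Ndufs1, Ndufv1, Ndufa9 and Uqcrc1) and 64 lower as measured (median -1.03), and length-adjusted 8 were higher and 8 lower (median -0.02). Uqcr11, a complex III subunit with a CDS of 171 nt, had ratios of -1.33 as measured and 0.04 length-adjusted (adjusted p = 0.86). Of 78 mitochondrial ribosomal protein genes, none was higher and 49 were lower as measured, and length-adjusted Mrpl16, Mrps2 and Mrpl48 were higher and 11 lower. In this list and in the oxidative phosphorylation list, the length-adjusted shares lay below those of all genes (14.5% higher and 15.6% lower).

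Mitochondrial carriers, membrane proteins that exchange metabolites, had positive medians, with few called lower. Of 36 genes tested of 47, 9 were higher and Slc25a23 and Slc25a5 lower as measured (median 0.28), and length-adjusted 10 were higher and Slc25a23 lower (median 0.58). Of all genes, 19.3% were higher as measured and 14.5% length-adjusted. The glutamate carrier Slc25a22 stood at 168, 173 and 181 CPM in the inputs and 304, 384 and 510 CPM in the pulldowns (log2 ratio 1.17, SE 0.15). Of 21 genes of the tricarboxylic acid cycle and pyruvate dehydrogenase, 7 were higher and 4 lower (Sdhb, Dlat, Mdh2 and Idh2). Of 17 glycolytic enzyme genes, 6 were higher and 6 lower, and length-adjusted 6 were higher and Pgk1, Eno1, Pkm, Tpi1 and Gapdh lower.

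Biotin-dependent carboxylases carry bound biotin on some of their subunits also in cells without TurboID. The list holds the biotin-carrying proteins Acaca, Acacb, Pcx, Pcca and Mccc1, the partner subunits Pccb and Mccc2, which carry no biotin, and Hlcs, the ligase that attaches it. Of these 8 genes, Acaca, Pcx, Pcca, Pccb and Mccc2 were higher as measured and none was lower (median 0.72), and length-adjusted Acaca, Pcx and Pcca were higher. Acaca, acetyl-CoA carboxylase, held 79.2, 52.8 and 71.1 CPM in the inputs and 800, 231 and 387 CPM in the pulldowns. The lowest pulldown lay above the highest input, and the ratio was 2.66 as measured (SE 0.28, adjusted p = 1.6e-06) and 2.09 length-adjusted. In the Pan-TurboID pulldowns the Acaca ratio was 1.84.

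Protein turnover genes were mixed. Of 47 proteasome genes tested, Psmd1, Psmg2, Psme4, Psma4 and Psma5 were higher and 18 lower, and length-adjusted 10 were higher and 15 lower (median -0.01). Of 20 large HECT and RING ubiquitin ligase genes tested, with a median CDS of 6968 nt, 17 were higher and none lower (median 1.16), and length-adjusted 13 were higher and Nedd4 and Nedd4l lower. Between 300 and 1000 nt of the CDS alone none of 19 was higher and 1 was lower (median -0.03). Of 72 heat shock protein and chaperonin genes tested, 15 were higher and 26 lower, and length-adjusted 6 and 22.

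Among nuclear proteins, replication-dependent histones were the most depleted class as measured. Of 66 genes tested none was higher and 66 were lower (median -1.57), and length-adjusted 43 were lower (median -0.64). Only 5 could be tested between 300 and 1000 nt of the CDS alone, and 5 were lower (median -1.505), against 15.7% of all genes. Hist2h2bb had 122, 166 and 133 CPM in the inputs and 42.6, 54.3 and 32.7 CPM in the pulldowns (log2 ratio -1.69, SE 0.16). Histone genes are near-identical copies, so their 66 ratios are not separate observations. Of 10 histone variant genes, H2afy2 was higher and 7 lower. Chromatin remodellers and modifiers, 46 genes with a median CDS of 6039 nt, turned with the scale: 20 were higher and Arid1b and Arid1a lower as measured (median 0.35), and length-adjusted 8 were higher and 17 lower (median -0.13). Position-adjusted the median was -0.26, and between 300 and 1000 nt of the CDS alone none of 41 was higher and 15 were lower (all genes 15.3% higher and 15.7% lower).

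A list of 32 genes was made up of genes with Sm, LSm and snRNP names, not all of them Sm or LSm proteins of the spliceosome. In it, Snrnp200 and Snrnp70 were higher and 21 lower as measured. Length-adjusted, Snrnp200 was higher and Lsm14a, Snrpn and Lsm14b lower. Of 19 immediate early genes, which neurons switch on with activity, none was higher and 14 were lower on the measured and on the length-adjusted scale (medians -0.85 and -0.62). Fos had 171, 464 and 349 CPM in the inputs and 75.2, 220 and 162 CPM in the pulldowns. The ranges overlapped, and in each culture the pulldown lay below its own input (log2 ratio -1.12, SE 0.15, adjusted p = 2.5e-06). Of 18 genes of MHC class I and antigen processing, Tap1 and Erap1 were higher and Pdia3 and B2m lower as measured. Both shares were below those of all genes (19.3 and 22.6%). Length-adjusted, Tap1 alone was higher and Pdia3 alone lower.

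Most marker lists of cell types held genes called in both directions. Of 8 excitatory neuron markers, the vesicular glutamate transporters Slc17a6 and Slc17a7 and the kinase Camk2a were higher, and the transcription factors Neurod2, Neurod6, Bcl11b and Tbr1 lower. Of 9 inhibitory neuron markers, the vesicular transporter Slc32a1 and the enzymes Gad1 and Gad2 were higher on both scales. The other 6 were lower as measured (median of the 9 genes -0.95), and Dlx2, Lhx6 and Dlx5 were lower length-adjusted. Slc32a1 stood at 267, 453 and 345 CPM in the inputs and 482, 920 and 636 CPM in the pulldowns (log2 ratio 0.92, SE 0.12). Of 10 astrocyte markers tested, 5 were higher, Slc1a2, Aldoc, Slc1a3 and Gja1 among them, and the transcription factor Sox9 was lower. Sox9 had 127, 134 and 112 CPM in the inputs and 44.6, 82.7 and 22.4 CPM in the pulldowns (log2 ratio -1.42, SE 0.21). Of 8 oligodendrocyte lineage markers tested, Cspg4 was higher and Olig1, Olig2 and Sox10 lower as measured, and length-adjusted Olig1, Sox10, Olig2 and Pdgfra were lower. Of the 9 general neuron markers, Tubb3 was higher and 6 were lower as measured (median -0.67), and Tubb3 was higher and Map2, Nefm, Elavl4 and Nefl lower length-adjusted. Of the progenitor markers Top2a was higher and Nes and Hes5 lower as measured. Neither of the 2 endothelial and mural markers tested passed the test.

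Whether these ratios belonged to TurboID-PSD95 was asked with the difference of pulldown-over-input ratios from Pan-TurboID at rest. Of 13003 genes, 1 was higher (0.00769%) and 0 lower, and the 1 was Dlg4 (difference 3.89, SE 0.35, edgeR adjusted p = 5.9e-05). At an unadjusted p of 0.05, 417 genes (3.21%) passed, and edgeR's likelihood ratio test and DESeq2 each called 1. Without the block that pairs input and pulldown by culture no gene was called, and Dlg4 had a difference of 3.95 at an edgeR adjusted p of 1.0. For Pan-TurboID at rest, 2002 genes were higher (15.4%) and 2271 lower (17.5%) in the pulldown. Its position-adjusted class medians beside those of TurboID-PSD95 were 0.84 and 1.32 for mitochondrially encoded genes, -0.59 and -0.83 for transport-granule RNA binders, 0.40 and 0.61 for glutamate receptors, 0.51 and 0.58 for Rab GTPases, and -0.37 and -0.29 for postsynaptic scaffolds. Fos and Map2 are given for their size and were picked after the values were seen. Fos had ratios of -0.22 in Pan-TurboID and -1.12 in TurboID-PSD95, a difference of -0.90 (SE 0.20, unadjusted p = 0.00018 from edgeR, adjusted p = 0.78). For Map2 the values were -0.12 and -0.79, a difference of -0.67 (edgeR adjusted p = 1.0).

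Against the depolarized TurboID-PSD95 pulldowns, none of the 13003 genes differed at an adjusted p of 0.05 by edgeR's quasi-likelihood test (636 at an unadjusted p of 0.05, 4.89%, and 1 each by its likelihood ratio test and by DESeq2). The smallest p belonged to Dgat1, which makes triacylglycerol: at rest it held 13.2, 19.6 and 16.6 CPM in the inputs and 33.6, 30.7 and 34.2 CPM in the pulldowns (log2 ratio 1.02, SE 0.29, adjusted p = 0.0059), a call lost without replicate 1 (edgeR adjusted p = 0.069). All resting pulldowns lay above all resting inputs. In the depolarized libraries the ratio was -1.12 (adjusted p = 0.0075), and the difference was 2.14 (SE 0.43, edgeR adjusted p = 0.47). Over the depolarized inputs, 2230 genes were higher in the pulldown (17.1%) and 2262 lower (17.4%).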

How the data were processed

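Per the file headers and the methods, the authors trimmed reads, cut unique molecular identifiers, removed ribosomal RNA reads and duplicates, aligned to mm10 with Rsubread and counted the 5′ ends of reads per exon segment of UCSC transcripts with plastid. The deposited files hold raw read counts per segment, used here, and RPKM values made by the authors from the same counts, not used for any test. The handling of strand and of reads with several matches is not given in the sources used here. In every library the headers give a read length of 25 to 100 nt, so counts were not limited to 1 footprint length. Reads that did not come from a ribosome were not told apart. Transcripts were matched to gene symbols through GENCODE of the same build (99.3% of 67238 coding transcripts), CDS segments of the longest transcript of each gene were summed, and the CDS counts of the 24 libraries of the depolarization experiment were fitted together with edgeR 4.0.16 in R 4.3.3 (limma 3.58.1): TMM factors, filterByExpr, quasi-likelihood tests with robust dispersion, a block for each of 12 cultures, a pulldown effect for each of 4 groups and Benjamini-Hochberg adjusted p-values at 0.05. CPM values are on these effective CDS totals and are levels within a gene. Between genes, only ratios were compared. The length trend was a loess curve (span 0.3) on log2 CDS length, fitted in each library and entered as an offset. The values fitted were log2 CPM minus the gene's mean over the 24 libraries. The position trend, an alternative added after seeing the data, was estimated in 15 bins of distance from the start codon. The inputs' deviations from their group mean correlated with those of their own pulldowns at 0.50, 0.23 and 0.33, and the methods state that each pair came from one culture. Replicates of a fraction differed beyond counting noise (chi-square per gene 8.14 to 18.4). Shares and position ratios were tested with exact permutation tests (SciPy 1.17.1). Named genes were the 8 higher and 8 lower genes with the lowest length-adjusted p, the bait gene, in each class up to 2 called members with the lowest p and the first in the opposite direction, the gene with the lowest p in each difference of ratios, and all called members where a count was 5 or fewer. The members, lists and tests were chosen with earlier results of these data known. The scripts were checked on simulated counts. Alternatives were the likelihood ratio test, DESeq2 1.42.0, other normalizations and filters, the fit without the block, the transcript with the highest count and leaving out each replicate. With the block, differences in level between cultures are removed. The edgeR p-values of the CDS fits therefore measure the spread of the pulldown-over-input ratio between cultures. Dispersion was estimated over all 24 libraries, the Pan-TurboID and depolarized ones included. Some called genes are not reported here. Libraries of other experiments in the series were not analysed here.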

Additional observations from a re-analysis of the deposited data

Results flagged for a closer look

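Dlg4 stood apart in the comparison of TurboID-PSD95 with Pan-TurboID at rest: its pulldown-over-input ratio was 3.89 log2 units higher with TurboID-PSD95 (SE 0.35, edgeR quasi-likelihood adjusted p = 5.9e-05), and it was the only one of 13003 genes past the threshold in that test. Its ratios were 3.62 with TurboID-PSD95 and -0.26 with Pan-TurboID, and the TurboID-PSD95 pulldown lay above its own input in 3 of 3 cultures. The bait construct carries PSD95 sequence, and reads from it cannot be told apart from reads of the endogenous gene in the deposited counts. Without the pairing block the difference was 3.95 with an edgeR adjusted p of 1.0.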

How the results depend on the processing

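The 3 counts of genes called (5443 as measured, 3917 length-adjusted and 3934 position-adjusted) changed most without the block that pairs input and pulldown by culture: the fits with no replicate block called 3251, 1840 and 1803. Leaving out one replicate pair at a time gave 3967 to 4311 genes as measured, 2579 to 3010 length-adjusted and 2519 to 3019 position-adjusted, lowest without replicate 3 on the 2 adjusted scales (1217 higher and 1362 lower, and 1082 and 1437). Against Pan-TurboID, the fit with no replicate block called 0 genes, so the Dlg4 call rests on the pairing. The size of the Dlg4 difference did not (3.89 with the block, 3.95 without). Both fits also took in the depolarized TurboID-PSD95 pulldowns, where Dlg4 held 350, 1435 and 5325 CPM. What that spread did to the call was not tested. Against the depolarized libraries, the likelihood ratio test called 1 gene and DESeq2 1. With library sizes and TMM factors taken from the UTR counts, 31 5′ UTRs were called in place of 6614 (22 higher, 9 lower), and 345 3′ UTRs in place of 472 (142 higher, 203 lower). Spearman's rho of CDS length with the log2 ratio was 0.563 when low genes were left out (log2 CPM below 4), and 0.455 and 0.456 in replicate pairs 2 and 3. Btbd8 reversed, to 1.32 (adjusted p = 0.51), in segments 300 to 1000 nt from the CDS start, an alternative added after seeing the data. Of 1879 values of named genes under all alternatives, 1832 kept their direction and side of the threshold, 44 lost significance, 2 gained it and 1 reversed. Counted only in segments 300 to 1000 nt from the start, the position-adjusted medians of 7 classes changed sign: synaptic vesicle genes to -0.08, kinesins and dynein to 0.39, clathrin adaptors to -0.01, aminoacyl-tRNA synthetases to -0.21, proteasome subunits to -0.17, large ubiquitin ligases to -0.03 and endothelial and mural markers, with 1 gene, to 0.60. The causes of these changes were not tested. Depth limits genes with few counts, most of all in the 3′ UTRs, where 1169 genes could be tested.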
